A study of Homo sapiens with 10 samples.

Results

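The genes of oxidative phosphorylation were 102 of the 63140 gene identifiers counted in HS-SY-II cells, a line established from a human synovial sarcoma. They were taken by symbol as the protein-coding genes for the NDUF subunits of the A, B, C, S and V series, the SDH subunits, the UQCR subunits with CYC1, the COX4 to COX8 subunits, the ATP5 subunits, and the mitochondrially encoded MT-ND, MT-CYB, MT-CO and MT-ATP genes. The symbols alone matched 268 identifiers, of which 166 were not annotated as protein-coding. The nuclear genome encodes 89 of the members and the mitochondrial genome 13. Complex I has 44 members, complex II 4, complex III 10, complex IV 22 (with NDUFA4 and NDUFA4L2 placed there) and complex V 22. Enough counts for a test were found for 96 of them, 83 nuclear and all 13 mitochondrial.

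Cells received the vehicle DMSO, or 100 nM of WA-68 for 12, 24, 48 or 96 h. WA-68 is a degrader (PROTAC) directed at BRD9, a bromodomain protein of the non-canonical BAF complex, which remodels chromatin. There were 10 stranded poly(A) libraries, 2 labelled biological replicates for each of 5 groups, all from this single line. When the DMSO cultures were harvested is not stated in the labels, so time in culture and treatment cannot be told apart in a comparison with DMSO.

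Oxidative phosphorylation passes electrons from NADH and succinate through complexes I and II to ubiquinone, then through complex III and cytochrome c to complex IV, which reduces oxygen. Complexes I, III and IV pump protons across the inner mitochondrial membrane, and complex V, the ATP synthase, lets them flow back to make ATP. Complex II is made wholly of nuclear-encoded subunits, whereas complexes I, III, IV and V combine subunits from both genomes. The mitochondrial genes are transcribed from both strands of the circular genome as long precursors that are cut at the transfer RNAs between the genes, so their mRNA levels depend both on transcription and on the stability of each mRNA.

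Total assigned counts ran from 7349744 to 13200051 per library. Levels are CPM, read counts relative to the library total after TMM scaling. Changes are log2 fold changes with their standard error (SE) from edgeR's quasi-likelihood test, and a gene was called where its Benjamini-Hochberg adjusted p was under 0.05 over 16382 tested genes. The difference of replicate 2 from replicate 1 was correlated across 14847 genes with transcript GC content. The Spearman coefficient was largest in DMSO, at 0.597, and was 0.304 at 96 h, -0.31 at 48 h, -0.18 at 24 h and -0.063 at 12 h. Its sign depends on the numbering of the replicates, and it does not tell which library of a pair departs. The 12 synovial sarcoma markers summed to 1127 to 1235 CPM per library, with SS18 and SSX1 present in each library. Of the 12, 9 had enough counts for a test. The sum hides opposite changes: at 96 h 1 was called higher and 1 lower, with log2 fold changes from -1.07 for PDGFRA to 1.28 for KRT19. The 14 markers of leukocytes, endothelium, muscle, liver, islet and glia summed to 0.236 to 1.34 CPM, and 7 of them had no count. BRD9 itself had 88.0 and 89.01 CPM at 96 h, against 99.8 and 108 CPM in DMSO; it was not called at any time, and its mRNA does not measure the protein that WA-68 targets. In bulk RNA, a lower level of a gene per cell and a smaller proportion of cells that express it cannot be told apart. Levels relative to the library total do not show the number of cells or the total RNA per cell.

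The transcripts of the 2 genomes took different courses. Nuclear-encoded members had lower medians at later times: their median log2 fold change against DMSO was -0.01 at 12 h, -0.07 at 24 h, -0.14 at 48 h and -0.18 at 96 h, while the median over all tested genes stayed within 0.01 of 0 at each time. Scaling to library size alone moved all genes alike: the median of all genes was then 0.06 at 12 h and 0.04 at 96 h, and the nuclear median 0.05 and -0.13. Below 0 were 44, 60, 69 and 72 of the 83 at 12, 24, 48 and 96 h, against 50.1% to 51.2% of all tested genes. Mitochondrially encoded members had a median of -0.30 at 12 h, -0.10 at 24 h, 0.06 at 48 h and 0.16 at 96 h. All 13 lay below 0 at 12 h (MT-ND6 at 0.01 with scaling to library size alone, where the median of all genes was 0.06), and 12, 4 and 1 of the 13 at 24, 48 and 96 h. The 96 h median rested on replicate 2 of 96 h, and was -0.17 without it. The 4 comparisons share the same DMSO libraries.

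As shares of all counts, the 13 mitochondrial genes took 7.80% and 8.10% in the DMSO libraries, 6.77% and 6.93% in the 12 h libraries, 7.89% and 7.66% in the 24 h libraries, 8.69% and 8.45% in the 48 h libraries, and 7.30% and 10.9% in the 96 h libraries, replicate 1 before replicate 2. The replicates lay close together in every group except 96 h, where replicate 1 was below both DMSO libraries and replicate 2 above all other libraries. The 89 nuclear genes took 0.583% and 0.574% in the DMSO libraries, 0.606% and 0.588% in the 12 h libraries, 0.570% and 0.570% in the 24 h libraries, 0.547% and 0.536% in the 48 h libraries, and 0.527% and 0.501% in the 96 h libraries. Both libraries of 24, 48 and 96 h were below both DMSO libraries, and both 12 h libraries were above them. After TMM scaling the nuclear sums at 12 h, 6014 and 5769 CPM, lay on either side of the DMSO sums of 5969 and 5975 CPM. Reads of the mitochondrial set outnumbered those of the nuclear set 13.4 and 14.1 times in DMSO, 11.2 and 11.8 times at 12 h, 13.8 and 13.4 times at 24 h, 15.9 and 15.8 times at 48 h, and 13.8 and 21.6 times at 96 h.

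**Figure D1:**
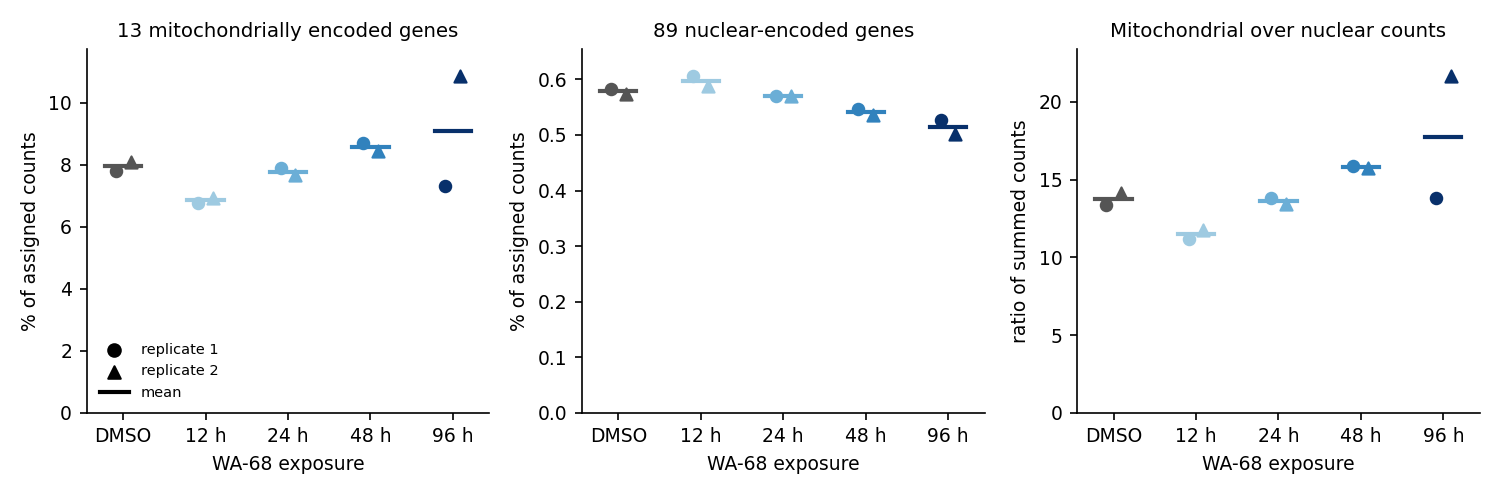
Share of assigned counts (%) in the 13 mitochondrially encoded genes (left) and the 89 nuclear-encoded genes (middle), and the ratio of the summed counts (right), by group; points are libraries and bars the mean of 2. The nuclear share is lowest at 96 h (0.527% and 0.501%), and the mitochondrial share of the 96 h libraries is split between 7.30% and 10.9%.

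Few single members passed the test. At 12 h 1 of the 96 was called, lower, against 3.15% of all genes, with 1.23% higher and 1.92% lower. At 24 h it was 1 again, lower, against 3.6% of all genes, with 1.34% higher and 2.25% lower. At 48 h 1 was higher and 4 lower, against 9.39% of all genes, with 4.01% higher and 5.38% lower. At 96 h 3 were higher and 10 lower, against 13% of all genes, with 6.14% higher and 6.86% lower. The mean of the 4 times against DMSO gave 7 lower and 0 higher, against 12.1% of all genes, with 4.9% higher and 7.22% lower. The members' shares were near or below those of all genes in these comparisons, apart from the lower calls at 96 h, which were 10.4% of the members. No nuclear-encoded member was called higher in any of these comparisons by edgeR.

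By complex, the median 96 h log2 fold change of nuclear-encoded members was -0.13 for complex I (36 tested), -0.22 for complex II (4), -0.23 for complex III (9), -0.20 for complex IV (15) and -0.22 for complex V (19). Lower calls came to 1, 0, 1, 2 and 5 in that order. These were 2.78%, 0%, 11.1%, 13.3% and 26.3% of the members tested, against 6.86% of all genes. No test of the difference between complexes was made. Summed over nuclear-encoded subunits, complex V had 1911 and 1864 CPM at 96 h, against 2343 and 2330 CPM in DMSO, the widest relative gap of the 5 sums. Complex I summed to 1567 and 1530 CPM at 96 h, against 1704 and 1681 CPM in DMSO. Complex II, with no mitochondrial partner gene, summed to 158 and 156 CPM at 96 h, against 180 and 173 CPM in DMSO. In each of the 5 sums both 96 h libraries were below both DMSO libraries.

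**Figure D2:**
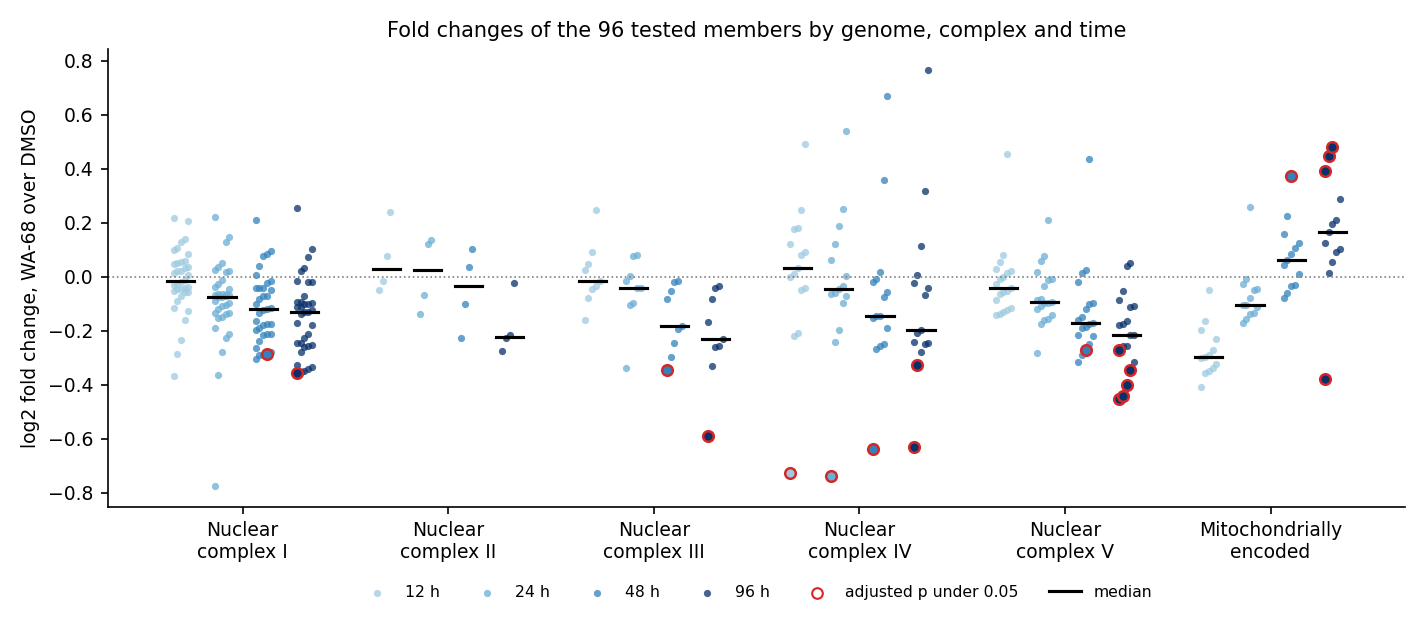
Log2 fold change of WA-68 over DMSO (vertical axis) for each tested member, by genome and complex and, within each, by time from 12 to 96 h; red rings mark an adjusted p under 0.05 and bars the median. The nuclear medians move from -0.01 at 12 h to -0.18 at 96 h over all complexes, and the mitochondrial median from -0.30 to 0.16.

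The ATP synthase held the largest number of lower members at 96 h, 5 of its 19 nuclear-encoded genes: ATP5F1A, ATP5F1B, ATP5F1D, ATP5F1E and ATP5MC3. That was 26.3% of the 19, against 6.86% of all genes called lower at 96 h. ATP5F1A and ATP5F1B encode the alpha and beta subunits of the catalytic F1 head, and ATP5F1D and ATP5F1E the delta and epsilon subunits of its central stalk. ATP5MC3 is a gene for subunit c, which forms the rotating ring in the membrane. ATP5F1B (chromosome 12, 56638175 to 56646068, minus strand, GRCh38) was, per kilobase of transcript, the most abundant nuclear-encoded member, and had 564 and 558 CPM in DMSO, 606 and 532 CPM at 12 h, 523 and 517 CPM at 24 h, 473 and 455 CPM at 48 h, and 423 and 396 CPM at 96 h. Both libraries of 24, 48 and 96 h were below both DMSO libraries, while the 12 h libraries lay on either side of them. The log2 fold change at 96 h was -0.45 (SE 0.09, edgeR adjusted p = 0.000691), and it stayed called without any single library, between -0.49 and -0.41. At 48 h it was -0.27 (adjusted p = 0.0431), a call lost without any of 8 libraries.

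ATP5F1A had 566 and 528 CPM at 96 h, against 705 and 684 CPM in DMSO, and fell by 0.34 on the log2 scale (SE 0.08, edgeR adjusted p = 0.00572). ATP5MC3 had 80.03 and 76.0 CPM at 96 h, against 106 and 100.0 CPM in DMSO (log2 fold change -0.40 with SE 0.09, adjusted p = 0.00325). In both genes the groups did not overlap, and both calls stood without any single library, but neither was made from the 4 compared libraries alone. Of the 3 genes for subunit c, ATP5MC1 and ATP5MC2 had log2 fold changes of -0.32 and -0.22 at 96 h and were not called (adjusted p = 0.0947 and 0.152). ATP5F1D, at 43.1 and 48.0 CPM at 96 h against 53.1 and 71.1 CPM in DMSO, had -0.44 (adjusted p = 0.0133), a call lost without replicate 2 of DMSO, where the value was -0.23, or without replicate 1 of 96 h. ATP5F1E had -0.27 (adjusted p = 0.0421), a call lost without any of the 10 libraries in turn. ATP5IF1, the inhibitor of ATP hydrolysis by the enzyme, had 0.05 (adjusted p = 0.852).

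In complex III, UQCRH, the acidic hinge protein that helps bind cytochrome c, had the smallest adjusted p of all members at 96 h. It had 71.9 and 69.7 CPM in DMSO, 67.0 and 59.8 CPM at 12 h, 56.0 and 56.0 CPM at 24 h, 59.2 and 56.1 CPM at 48 h, and 49.7 and 43.9 CPM at 96 h. Every WA-68 library was below both DMSO libraries, and the 96 h libraries were the lowest. The log2 fold change was -0.59 at 96 h (SE 0.10, edgeR adjusted p = 0.00022) and -0.35 over the mean of the 4 times (SE 0.07, adjusted p = 0.00296); both calls stood without any single library, the first between -0.68 and -0.51. The near-identical copy UQCRHL, 99.2% identical over 129 aligned bases, held 148 counts in all against 5478 for UQCRH. CYC1, the haem-carrying cytochrome c1, was lower at 48 h (log2 fold change -0.35, adjusted p = 0.0494) in a call lost without any of 7 libraries, and missed the threshold at 96 h (-0.33, adjusted p = 0.0504). UQCRC1 and UQCRFS1, a core protein and the Rieske iron-sulphur protein, had -0.26 and -0.23 at 96 h and were not called (adjusted p = 0.0836 and 0.155).

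Complex IV held the only member called at each of the 4 times, NDUFA4L2, a paralogue of the subunit NDUFA4 that is known as a gene induced by hypoxia. It had 84.9 and 106 CPM in DMSO, 46.8 and 68.1 CPM at 12 h, 58.5 and 55.6 CPM at 24 h, 65.7 and 56.3 CPM at 48 h, and 55.8 and 67.7 CPM at 96 h. All 8 WA-68 libraries were below both DMSO libraries, and the lowest value was replicate 1 of 12 h. Its log2 fold changes were -0.73, -0.74, -0.64 and -0.63 at 12, 24, 48 and 96 h (SE 0.14 each, edgeR adjusted p = 0.0029, 0.00234, 0.00392 and 0.0025). Each of these calls was lost without 1 library of its own time: replicate 1 of 12 h (adjusted p = 0.165), replicate 2 of 24 h (0.0704), replicate 2 of 48 h (0.115) and replicate 1 of 96 h (0.0529). DESeq2 did not call it at 48 or 96 h. The mean over the 4 times, -0.68 (SE 0.10, adjusted p = 7.99e-05), stood without any single library. NDUFA4 followed another course: it had 101 and 101 CPM at 12 h and 86.6 and 83.3 CPM at 96 h, against 89.5 and 88.8 CPM in DMSO, and was not called at any time against DMSO.

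Of the other nuclear-encoded complex IV subunits 1 was called at 96 h. COX6C was lower at 96 h, with 75.6 and 66.6 CPM against 97.4 and 81.1 CPM in DMSO (log2 fold change -0.33, edgeR adjusted p = 0.0314), a call lost without any of 6 libraries. COX7B was lower over the mean of the 4 times (-0.22, adjusted p = 0.0365) with no call at a single time, and lost that call without any of 7 libraries. COX6A1, the most abundant complex IV subunit of the nuclear genome per kilobase, had 157 and 210 CPM at 96 h, against 178 and 194 CPM in DMSO, with overlapping groups and a log2 fold change of -0.02 (adjusted p = 0.928). COX8A, the next per kilobase, had 0.11 (adjusted p = 0.575).

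**Figure D3:**
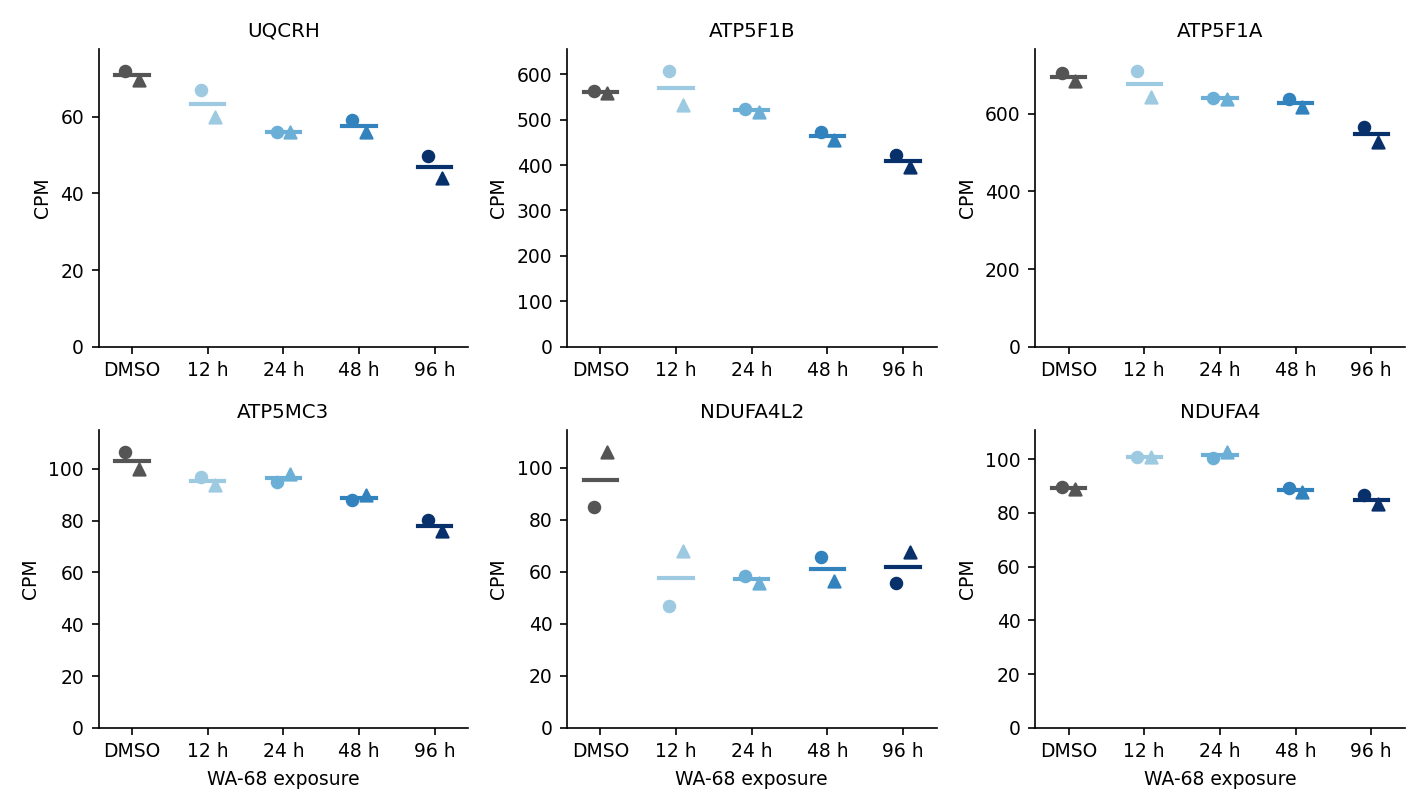
CPM (vertical axis, from 0) of 6 nuclear-encoded members in each library by group, with circles for replicate 1, triangles for replicate 2 and bars for the mean. UQCRH, ATP5F1B, ATP5F1A and ATP5MC3 are lowest at 96 h, NDUFA4L2 is low in all 8 WA-68 libraries, and NDUFA4 is highest at 12 and 24 h.

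Of the tissue-specific isoforms of complex IV, COX4I2, COX7B2, COX6A2 and COX8C had too few counts for a test, and COX7A1 and COX6B2 had low levels. COX4I2, the lung and hypoxia isoform of COX4I1, and COX7B2 had no count in 91969937 assigned counts, which allows up to 0.0326 CPM. COX6A2, the heart and muscle isoform, had 1 count and COX8C, a testis isoform, 5. COX7A1, the heart and muscle isoform of COX7A2, had 4.86 and 4.06 CPM at 96 h, against 2.95 and 2.24 CPM in DMSO. It had the highest log2 fold change among nuclear-encoded members at 96 h, 0.77 (SE 0.28), without passing the test (edgeR adjusted p = 0.0785). COX7A2 had 54.6 and 51.2 CPM at 96 h, against 57.8 and 51.1 CPM in DMSO. COX6B2, a testis isoform, had 4.95 and 4.34 CPM at 96 h, against 3.49 and 4.13 CPM in DMSO (log2 fold change 0.32, adjusted p = 0.451).

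Complex I, the largest complex, had 1 lower call among 36 nuclear-encoded members at 96 h. That was NDUFS5, a small accessory subunit, at 26.5 and 31.9 CPM against 37.8 and 36.4 CPM in DMSO (log2 fold change -0.36, SE 0.12, edgeR adjusted p = 0.0439), a call lost without any of 8 libraries. NDUFB9, an accessory subunit of the membrane arm, was lower at 48 h (-0.29, adjusted p = 0.0408), lost without any of 7 libraries. No nuclear-encoded core subunit of complex I was called at 96 h. NDUFS1, which carries iron-sulphur clusters, had 267 and 247 CPM at 96 h, against 293 and 257 CPM in DMSO (-0.10, adjusted p = 0.52), and NDUFV2 had -0.35 (adjusted p = 0.0516). NDUFA7, the member of lowest count among those tested in complex I with 354 counts in all, gave the most negative value of complex I at 24 h, -0.77, without a call.

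Complex II had no call at any time. SDHA, the flavoprotein, had 46.4 and 45.1 CPM at 96 h, against 52.9 and 53.4 CPM in DMSO (log2 fold change -0.22 with SE 0.10, edgeR adjusted p = 0.152). SDHB, the iron-sulphur subunit, had -0.27 (adjusted p = 0.176), and the membrane anchors SDHC and SDHD had -0.02 and -0.23 (adjusted p = 0.913 and 0.195). Both 96 h libraries were below both DMSO libraries for SDHA, SDHB and SDHD. The share of all tested genes that lay below DMSO in this way was not computed at 96 h, so these 3 have no share to be read against. At 12 h it was 22.1%, in a comparison with fewer calls over all genes (3.15%, against 13% at 96 h). The pseudogenes of SDHA held 2617 counts beside 4602 for SDHA, the highest proportion among the members, so the level of SDHA depends on how reads shared with them were assigned.

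Promoter windows of 250 bases before to 50 after the start of the gene were available from RefSeq (GRCh38.p14) for 70 of the 89 nuclear members, and for 9 of the 18 that were called lower in at least 1 comparison. Those printed are shown because the 3 genes were called lower and because the nuclear subunit genes are known for sites of NRF1 and of the ETS factor GABP. The ETS core CCGGAAG, searched on both strands, stood in 20 of the 70 windows (28.6%), against 14.2% of 15843 protein-coding windows, and in 6 of the 9: COX4I1, COX5B, NDUFA1, NDUFB7, UQCRH and UQCRQ. Of these 6, only UQCRH was called lower against DMSO. The others were called lower only in the mean of 48 and 96 h against the mean of 12 and 24 h. Each of those calls was lost without any of 5 to 8 libraries. ATP5F1B, ATP5MC3 and NDUFA4L2, also called lower, had no window. The 9 were picked by calls in these same data, and their share was not tested. The NRF1 core (GCGCA, then any base, then GCGC) stood in 17 of the 70 (24.3%), against 8.58% of all windows, and in 0 of the 9. The YY1 core AAGATGGC stood in 11 of the 70 (15.7%), against 3.91%, and the E-box CACGTG in 7 (10.0%), against 8.88%, and neither in any of the 9. Capitals mark the ETS core, which lies 46 bases before the start in UQCRH (chr1:46303448-46303747, plus strand) and in 2 copies, 37 and 5 bases before the start, in COX5B (chr2:97645812-97646111, plus strand). The window of ATP5F1A (chr18:46104178-46104477, minus strand) held none of the 4 motifs. A match is a description of these letters and not a site of binding.
UQCRH: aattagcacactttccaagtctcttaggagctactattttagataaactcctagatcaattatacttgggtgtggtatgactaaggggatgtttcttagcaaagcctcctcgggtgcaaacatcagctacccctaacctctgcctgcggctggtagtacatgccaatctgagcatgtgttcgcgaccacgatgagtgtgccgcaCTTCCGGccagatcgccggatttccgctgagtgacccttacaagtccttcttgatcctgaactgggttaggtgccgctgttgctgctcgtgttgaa
COX5B: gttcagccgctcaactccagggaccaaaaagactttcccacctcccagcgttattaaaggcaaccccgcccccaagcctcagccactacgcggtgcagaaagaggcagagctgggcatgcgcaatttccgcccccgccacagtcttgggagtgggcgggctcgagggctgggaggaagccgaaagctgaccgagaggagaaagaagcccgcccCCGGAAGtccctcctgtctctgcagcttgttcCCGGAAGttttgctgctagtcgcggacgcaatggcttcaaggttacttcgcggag
ATP5F1A: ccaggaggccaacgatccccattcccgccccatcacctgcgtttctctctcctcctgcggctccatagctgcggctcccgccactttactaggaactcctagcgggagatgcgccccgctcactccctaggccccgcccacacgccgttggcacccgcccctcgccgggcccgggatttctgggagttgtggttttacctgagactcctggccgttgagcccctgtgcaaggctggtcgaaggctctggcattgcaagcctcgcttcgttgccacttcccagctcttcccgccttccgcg

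The mitochondrially encoded genes were lower together at 12 h without passing the test. Of the 13, 12 had both 12 h libraries below both DMSO libraries, against 22.1% of all tested genes. Genes cut from shared precursors are not independent observations, so the 12 do not count as 12 separate results. The exception was MT-ND6, the only one of the 13 genes on the other strand. MT-ATP8 had the most negative log2 fold change, -0.41 (SE 0.12, edgeR adjusted p = 0.0612), followed by MT-ND3 with -0.36 (0.0662) and MT-ND4 with -0.35 (0.12). MT-CO1, a catalytic subunit of complex IV, had 12485 and 12897 CPM at 12 h, against 13762 and 14697 CPM in DMSO (log2 fold change -0.17, adjusted p = 0.525). edgeR called 0 of the 13, with 8 at an unadjusted p under 0.05, and DESeq2 and limma-voom also called 0. The share of all genes at that unadjusted threshold was not computed. Other settings called 12 with no filter, 8 with the 4 compared libraries only, 4 with a GC offset and 1 with a replicate block. Over all genes these settings called 2.18%, 3.42%, 7.7% and 2.86% in that order, against 3.15% in the fit reported. Without replicate 1 of 96 h, or without replicate 2 of 96 h, 12 of the 13 were called lower at 12 h, with 415 of 17014 and 440 of 17129 genes called lower in those fits; in these fits the lone 96 h library is assumed to vary like the other groups. Without replicate 2 of DMSO 2 were called, and without replicate 1 or replicate 2 of 12 h none was called, with smallest adjusted p of 0.297 and 0.308.

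At 96 h the 2 libraries went apart. Replicate 2 exceeded replicate 1 in 12 of the 13 genes, with a median log2 difference of 0.61, while the median difference of the nuclear-encoded members was -0.01. In each other group the median difference of the 13 was between -0.06 and 0.09. MT-ATP6, a membrane subunit of complex V next to the c ring, had 7142 and 12032 CPM at 96 h, against 6628 and 7114 CPM in DMSO (log2 fold change 0.48, SE 0.13, edgeR adjusted p = 0.0147). MT-ATP8 had 1898 and 2786 CPM at 96 h, against 1840 and 1593 CPM in DMSO (0.45, adjusted p = 0.0122), and MT-ND5 had 8512 and 12991 CPM, against 7883 and 8518 CPM (0.39, adjusted p = 0.025). These 3 higher calls were all lost without replicate 2 of 96 h, with values of 0.06 for MT-ATP6, 0.14 for MT-ATP8 and 0.05 for MT-ND5, and none was made by DESeq2. Leaving out replicate 1 of DMSO also ended the calls of MT-ATP6 and MT-ND5, and leaving out replicate 2 of DMSO that of MT-ATP8. Of the other 10 genes, 9 had values between 0.01 and 0.29 without a call, MT-CO2 at 0.10 and MT-ND4L at 0.06 among them. The median of the 13 at 96 h was -0.17 without replicate 2 and 0.44 without replicate 1. The share of reads assigned to nuclear pseudogenes of mitochondrial genes was also highest in replicate 2 of 96 h, at 0.277%, against 0.128% to 0.157% in the other 9 libraries.

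**Figure D4:**
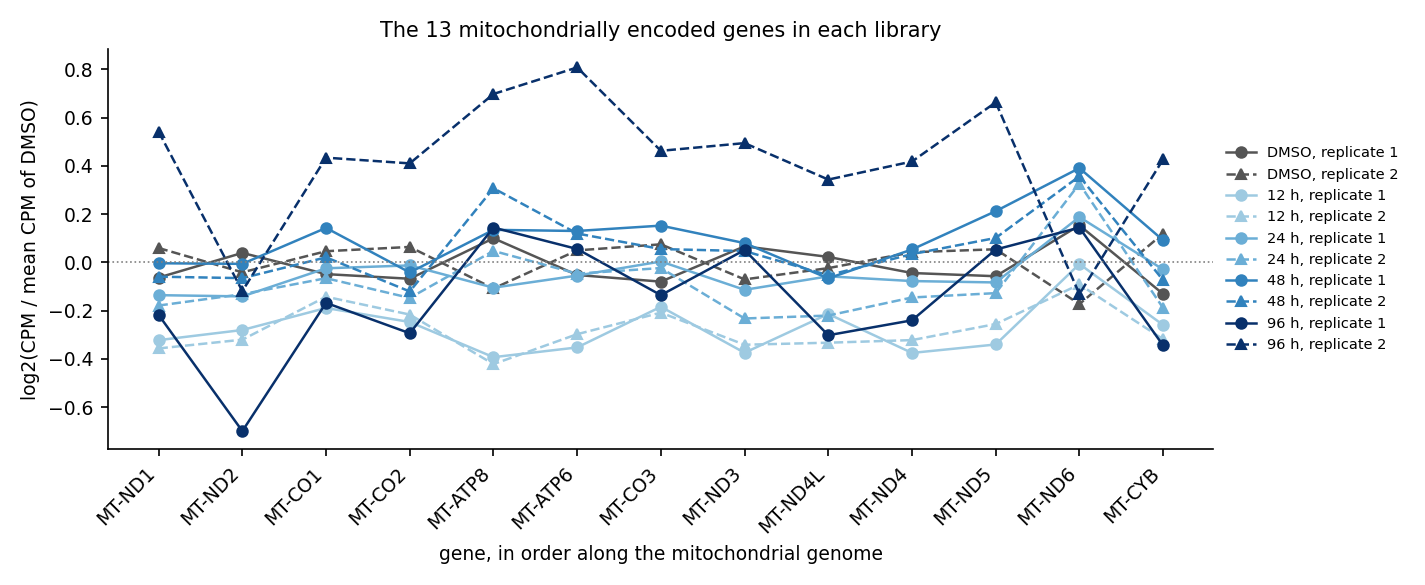
Log2 ratio of each library's CPM to the mean CPM of DMSO (vertical axis) for the 13 mitochondrially encoded genes in genome order, 1 line per library. Both 12 h lines lie below 0 for every gene with MT-ND6 nearest to it, the 96 h lines are separated by a median of 0.61, and both dip at MT-ND2.

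MT-ND2, a membrane subunit of complex I, was the gene whose proportion within the mitochondrial set differed most. It made up 9.37% and 8.90% of the counts of the 13 genes at 96 h, against 13.9% and 12.4% in DMSO and 12.4% to 13.9% in all 8 other libraries. The ratio of the group means was 0.694, with both 96 h libraries outside the range of the rest. Its level was 6643 and 9933 CPM at 96 h, against 11084 and 10482 CPM in DMSO (log2 fold change -0.38, SE 0.11, edgeR adjusted p = 0.0218). That call was lost without replicate 1 of 96 h (-0.11) or replicate 1 of DMSO, and stood at -0.70 without replicate 2 of 96 h; DESeq2 did not make it. Adding the reads of MTND2P28, a nuclear copy 98.4% identical over 1042 bases, left the shares at 9.45% and 8.97% at 96 h, against 14.02% and 12.5% in DMSO.

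MT-ATP6, MT-ND5 and MT-ATP8 took larger proportions at 96 h. MT-ATP6 made up 10.1% and 10.8% of the 13 at 96 h, against 8.31% and 8.44% in DMSO and 8.005% to 9.003% in the 8 other libraries. MT-ND5 made up 12.0% and 11.6% at 96 h, against 9.88% and 10.1% in DMSO, and its share was 10.9% and 10.6% at 48 h. MT-ATP8 made up 2.68% and 2.50% at 96 h, against 2.31% and 1.89% in DMSO, but up to 2.56% in the 8 other libraries, so that 96 h did not stand apart from all of them. The shares of MT-CO1, MT-CO3, MT-ND1, MT-ND3, MT-ND6 and MT-CYB overlapped between 96 h and DMSO. Those of MT-CO2, MT-ND4L and MT-ND4 did not, though the ratios of their group means were only 0.961, 0.935 and 0.981. Their 96 h shares lay within the range of the 8 other libraries. Being proportions, these shares show unequal change and not which gene changed. MT-ND6 took between 0.168% and 0.341% of the 13 in every library; it was higher at 48 h against DMSO, with 270 and 264 CPM against 229 and 183 CPM (log2 fold change 0.37, edgeR adjusted p = 0.0285), a call lost without replicate 2 of DMSO or either 48 h library. The MT-ND6 mRNA is known to carry little or no poly(A) tail.

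**Figure D5:**
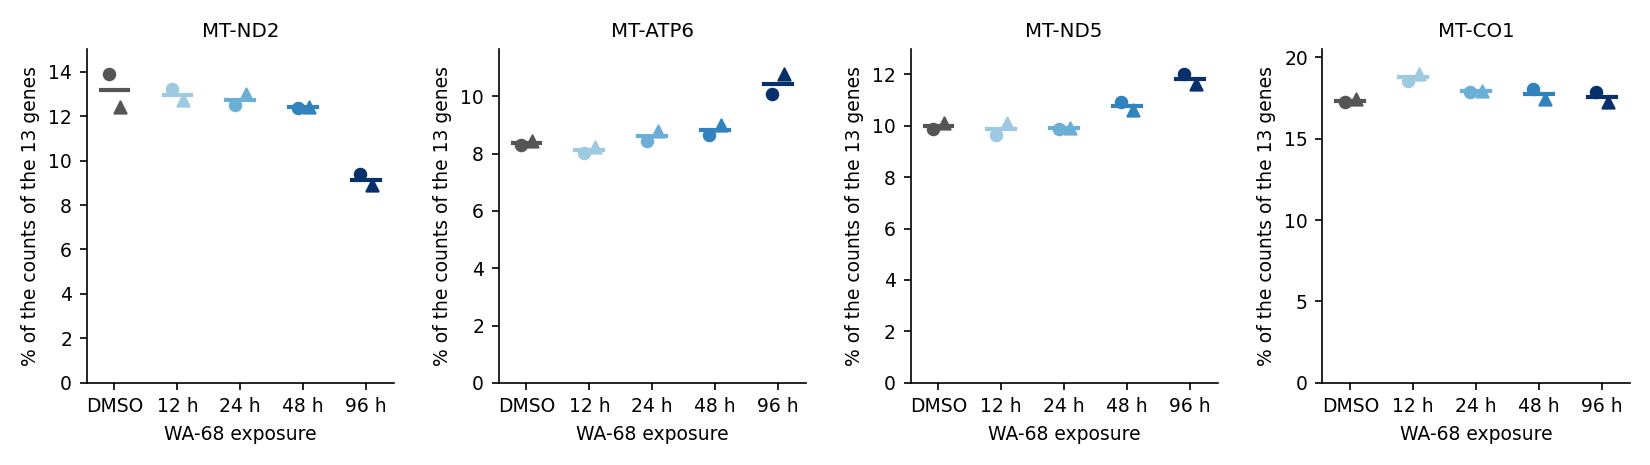
Share (%) of the summed counts of the 13 mitochondrially encoded genes taken by MT-ND2, MT-ATP6, MT-ND5 and MT-CO1 in each library by group; circles are replicate 1, triangles replicate 2 and bars the mean. Both 96 h libraries are low for MT-ND2 (9.37% and 8.90%) and high for MT-ATP6 (10.1% and 10.8%), while MT-CO1 overlaps with DMSO.

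MT-ATP8 and MT-ATP6 are read from a single mRNA on which their coding sequences overlap by 46 bases (chrM:8527-8572, plus strand, GRCh38), and MT-ND4L and MT-ND4 share another with an overlap of 7 bases. The sequence of MT-ATP8 (chrM:8366-8572) is shown to place that overlap, in capitals, which fills the last part of its 207 bases; a read there fits both genes, and how such reads were counted is not given in the sources used here.
MT-ATP8: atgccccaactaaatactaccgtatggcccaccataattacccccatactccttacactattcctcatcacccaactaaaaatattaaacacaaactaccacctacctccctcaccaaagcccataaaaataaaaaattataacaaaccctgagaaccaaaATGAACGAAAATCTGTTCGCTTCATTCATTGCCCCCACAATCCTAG
The nuclear copy MTATP6P1, 98.5% identical to MT-ATP6 over 681 bases, held 118492 counts against 652357 for MT-ATP6, or 15.4% of both. With its reads added, MT-ATP6 took 11.6% and 12.8% of the set at 96 h, against 9.57% and 9.83% in DMSO.

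Comparing late with early exposure leaves the DMSO libraries out of the contrast. No vehicle library is labelled with a time, so length of exposure and time in culture cannot be told apart in it. Of the 96 members, 6 were higher and 8 lower in the mean of 48 and 96 h than in the mean of 12 and 24 h, against 5.81% of all genes called, with 2.94% higher and 2.86% lower. All 6 higher members were mitochondrial and all 8 lower members nuclear. The 13 mitochondrial genes were all above 0 with a median of 0.25, and 71 of the 83 nuclear genes were below 0 with a median of -0.12. MT-ATP8 had the largest log2 fold change, 0.55 (SE 0.08, edgeR adjusted p = 0.000188), followed by MT-ATP6 with 0.49 (0.00165), MT-ND5 with 0.48 (0.000713) and MT-ND3 with 0.44 (0.000624). These 4 calls stood without any single library, that of MT-ATP6 was not made by DESeq2, and without replicate 2 of 96 h the values were 0.40, 0.28, 0.31 and 0.32. MT-ND1 and MT-ND4, with 0.34 and 0.31, lost their calls without any of 6 libraries, and had 0.12 and 0.13 without replicate 2 of 96 h.

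Among the nuclear-encoded members ATP5F1B had the most negative value of late against early exposure, -0.32 (SE 0.06, edgeR adjusted p = 0.00164), and kept its call without any single library. NDUFB7, an accessory subunit of complex I, had 27.1, 27.2, 30.4 and 30.4 CPM at 48 and 96 h, against 39.0, 37.4, 35.2 and 31.7 CPM at 12 and 24 h (log2 fold change -0.31, adjusted p = 0.0166). UQCRQ of complex III had -0.29 (0.0427), NDUFA1 of complex I -0.26 (0.0289) and NDUFB9 -0.22 (0.0404). In complex IV, COX5B had -0.23 (0.0342), COX4I1, the common isoform of subunit 4, -0.23 (0.0287) and NDUFA4 -0.22 (0.034). Apart from ATP5F1B, each of these calls was lost without any of 5 to 8 libraries. For NDUFA4 the late level was close to DMSO and the early level above it, whereas for ATP5F1B both late times were below DMSO.

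The 2 mitochondrial ribosomal RNAs varied widely between replicates. MT-RNR2 had 470 and 259 CPM at 96 h, against 19.5 and 97.4 CPM in DMSO (log2 fold change 2.70, SE 1.00, edgeR adjusted p = 0.0785), and 18.3 and 576 CPM at 24 h. With a range of 10.6 to 576 CPM over the libraries and wide gaps between replicates, it was not called at any time. Poly(A) selection is meant to leave ribosomal RNA out of the libraries.

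Of 32 genes that maintain and express mitochondrial DNA, 6 were lower and 0 higher at 96 h, with a median log2 fold change of -0.23. At 12, 24 and 48 h 1, 1 and 3 were lower. Of all tested genes 1.92%, 2.25%, 5.38% and 6.86% were lower at 12, 24, 48 and 96 h. TWNK, the replicative helicase of mitochondrial DNA, was lower at each time, with 147 and 166 CPM at 96 h, against 241 and 275 CPM in DMSO (log2 fold change -0.72, SE 0.10, edgeR adjusted p = 1.82e-05), and -0.62 already at 12 h. MRPL12, a mitochondrial ribosomal protein, had 10.7 and 9.10 CPM at 96 h, against 20.1 and 16.6 CPM in DMSO (-0.88, adjusted p = 0.000309). POLRMT, the mitochondrial RNA polymerase, had -0.39 (0.00998) and LRPPRC, which stabilises mitochondrial mRNAs, -0.39 (0.00557). TBRG4, a FASTK-family regulator of mitochondrial RNA, had -0.46 (0.0016).

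Among 14 nuclear regulators of mitochondrial genes, 3, 3, 3 and 2 were lower at 12, 24, 48 and 96 h, and 0, 1, 1 and 1 higher. Of all tested genes 1.92%, 2.25%, 5.38% and 6.86% were lower at these times, and 1.23%, 1.34%, 4.01% and 6.14% higher. MYC had 110 and 142 CPM at 96 h, against 280 and 329 CPM in DMSO (log2 fold change -1.28, SE 0.12, edgeR adjusted p = 1.34e-07), and -1.12 at 12 h. PPARGC1B, a coactivator of respiratory genes, had -0.49 at 96 h (adjusted p = 0.00409), and PPRC1, a related coactivator, -0.48 at 12 h (0.00719). ESRRG, an orphan nuclear receptor acting on such genes, was higher at 96 h, with 85.9 and 90.7 CPM against 69.3 and 62.6 CPM in DMSO (0.42, adjusted p = 0.00462).

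Carriers and membrane proteins of the mitochondrion had the highest share of lower calls at 96 h, 11 of 24 with 0 higher and a median log2 fold change of -0.32, against 0, 1 and 5 at 12, 24 and 48 h. VDAC1, the outer membrane channel, had 87.7 and 89.7 CPM at 96 h, against 134 and 128 CPM in DMSO (-0.56, SE 0.09, edgeR adjusted p = 0.000107), TOMM20, an import receptor, -0.59 (0.000458), and SLC25A3, the phosphate carrier of the inner membrane, -0.40 (0.0024). CYCS, the cytochrome c that links complexes III and IV, had -0.55 (0.00306). Of 52 assembly factors, 5 were lower at 96 h and 0 higher, with a median of -0.17; SCO1, a copper chaperone of complex IV, was lower at 12 h (-0.42, 0.0163) and LYRM7, which serves complex III, at 96 h (-0.59, 0.00109). Of 20 genes of the citric acid cycle and pyruvate dehydrogenase, 2 were lower at 96 h and 0 higher, with a median of -0.07; MDH2, mitochondrial malate dehydrogenase, had -0.38 (0.031). These lists were chosen with earlier results of these data known. Their counts are to be read against the share of all genes that were lower. That share was 1.92%, 2.25%, 5.38% and 6.86% at 12, 24, 48 and 96 h.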

How the data were processed

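Poly(A) RNA of 10 libraries was measured, 2 for each of 5 groups. The submitters' processing notes name bcl2fastq, FastQC, Trim Galore with cutadapt, STAR, GRCh38 and featureCounts; for versions, strand setting and reads that fit several genes the sources used here give nothing. The authors deposited whole-number read counts per gene without normalization, and all per-sample columns were used. Counts were scaled by TMM, filtered with filterByExpr (16382 genes kept) and fitted in edgeR 4.0.16 (R 4.3.3; quasi-likelihood F test, 1 mean per group, all 10 libraries, 5 residual degrees of freedom). Calls used Benjamini-Hochberg adjusted p-values under 0.05 over all tested genes. The p-values rest on the spread within pairs of libraries labelled as biological replicates, all of a single line. Gene types, positions and transcript sequences came from GENCODE release 29. Copies were aligned with Biopython.

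Named were the 13 mitochondrial genes, up to 3 called members per complex and comparison, abundant members and isoforms, and up to 3 genes per other list; not every gene the rule names is given. Members and lists were chosen with earlier results of these data known. Alternatives were RLE, upper-quartile and library-size scaling, other filters, a replicate term, a GC offset, the compared libraries only, DESeq2 1.42.0, limma-voom (limma 3.58.1), an adjusted p under 0.01, mitochondrial counts left out, and each library left out.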

Additional observations from a re-analysis of the deposited data

Results flagged for a closer look

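Levels at the early times of WA-68 (12 and 24 h) and at the late times (48 and 96 h) differed in a direct test for 14 members. Length of exposure and time in culture cannot be told apart in that test. Lower at the late times were ATP5F1B (log2 fold change -0.32), NDUFB7 (-0.31), UQCRQ (-0.29), NDUFA1 (-0.26), COX5B (-0.23), COX4I1 (-0.23), NDUFA4 (-0.22) and NDUFB9 (-0.22). Higher at the late times were MT-ATP8 (0.55), MT-ATP6 (0.49), MT-ND5 (0.48), MT-ND3 (0.44), MT-ND1 (0.34) and MT-ND4 (0.31). Of these, ATP5F1B, MT-ATP8, MT-ATP6, MT-ND5 and MT-ND3 stayed called without any single library. Groups of 2 libraries are too small for a check of single outlying libraries.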

How the results depend on the processing

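Leaving out each library in turn, with a lone library taken to vary like the other groups, gave 0 to 13 members called at 12 h (1 with all libraries), 0 to 3 at 24 h (1), 0 to 9 at 48 h (5), 10 to 18 at 96 h (13), 2 to 15 over the mean of the 4 times (7) and 5 to 24 for late against early exposure (14). The nuclear median log2 fold change then ran from -0.03 to 0.02 at 12 h, -0.07 to -0.05 at 24 h, -0.15 to -0.091 at 48 h, -0.20 to -0.17 at 96 h, -0.11 to -0.09 over the mean and -0.15 to -0.10 for late against early. The mitochondrial median ran from -0.31 to -0.27, -0.13 to -0.05, 0.03 to 0.12, -0.17 to 0.44, -0.10 to 0.02 and 0.12 to 0.42 in that order. Of 41 called pairs of gene and comparison, 11 stood without every library in turn, 30 were lost without at least 1, and 0 changed sign.

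Members called came to other numbers in these settings, in which the calls over all genes moved too: at 96 h 13% of all genes in the fit reported, 9.52% with DESeq2, 20.4% with a GC offset, 7.99% with the compared libraries only and 13.7% without the second libraries of DMSO and 96 h. With mitochondrial counts left out, the members are the nuclear ones alone, of which the fit reported called 4 at 48 h, 9 at 96 h and 8 for late against early exposure. At 12 h (1 in the fit reported) they were 13 with no filter, 7 with a GC offset, 9 with the compared libraries only and 12 without replicate 2 of DMSO and of 96 h together, a setting chosen after seeing the data. At 24 h (1) they were 4 with the GC offset and 5 without both libraries. At 48 h (5) they were 1 at an adjusted p under 0.01, 3 with RLE factors, 2 with upper-quartile factors, 2 with library size only, 2 with mitochondrial counts left out, 3 with a 5 CPM filter, 2 with DESeq2, 18 with the GC offset, 2 with the compared libraries only and 13 without both libraries. At 96 h (13) they were 5 under 0.01, 8 with mitochondrial counts left out, 5 with DESeq2, 29 with the GC offset, 4 with the compared libraries only and 21 without both libraries. Over the mean (7) they were 2 under 0.01, 3 with upper-quartile factors, 2 with library size only, 3 with DESeq2, 14 with the GC offset and 14 without both libraries. For late against early exposure (14) they were 5 under 0.01, 7 with mitochondrial counts left out, 6 with DESeq2, 28 with the GC offset and 26 without both libraries.

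With library size only, the nuclear median was 0.053 at 12 h, -0.01 at 24 h, -0.087 at 48 h, -0.13 at 96 h and -0.043 over the mean, while the median of all genes moved to 0.062, 0.056, 0.050, 0.041 and 0.050, so that the shift is common to all genes. Without both libraries the mitochondrial median at 96 h was -0.11, and the 96 h values of uncalled genes changed sign: MT-ND1 -0.15, MT-CO1 -0.11, MT-CO2 -0.22, MT-CO3 -0.052, MT-ND3 -0.011, MT-ND4L -0.32, MT-ND4 -0.19, MT-ND6 -0.005 and MT-CYB -0.21. With single libraries left out, the 96 h values ran from -0.22 to 0.55 for MT-ND1, -0.17 to 0.44 for MT-CO1, -0.29 to 0.42 for MT-CO2, -0.14 to 0.47 for MT-CO3, -0.30 to 0.35 for MT-ND4L, -0.24 to 0.43 for MT-ND4, -0.34 to 0.44 for MT-CYB and -0.14 to 0.19 for MT-ND6, the lowest without replicate 2 of 96 h except in MT-ND6. At 12 h MT-ND6 had 0.013 with library size only and 0.12 when the first DMSO library was left out. The cause of these changes was not tested.

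Libraries of equal replicate number had deviations from their group means that correlated between -0.123 and 0.186 over all tested genes. A batch shared by part of the genes or groups was not tested. With the number as a replicate block, 2, 1, 3, 11, 6 and 12 members were called in the 6 comparisons. Depth and 2 libraries per group limit small changes, and the GC offset covers 95.8% of tested genes.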
